A study of Drosophila melanogaster with 4 samples.

Results

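The genes described are AstC, Pdf, Pdfr and per, which encode 2 neuropeptides, a neuropeptide receptor and a clock protein. They were chosen by name, through the gene listed for each array probe, with earlier results of these data known. They make up 4 of the 1444 genes measured on 3 or 4 of the 4 arrays. Heads came from unmated Drosophila melanogaster males of the Oregon R wild-type strain, 3 to 4 days old when the treatment began. One group ate food with 1.5 mg/ml of pilocarpine for 7 days, and the other ate normal food for the same time, in vials that began with 30 flies. Pilocarpine is an agonist of muscarinic acetylcholine receptors. RNA was taken from 8 pools of frozen heads, and a treated and an untreated pool from parallel vials were hybridised together on each of 4 two-colour cDNA arrays, which makes every array a biological replicate of the comparison. Whole heads hold brain, eye, fat body, muscle and cuticle together, and the hour at which the flies were frozen is not given in the sources used here.

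Pdf encodes pigment-dispersing factor, a peptide that the ventral lateral clock neurons of the fly brain release to keep the other clock neurons in step and to promote activity in the morning. Its receptor, encoded by Pdfr, is a G protein-coupled receptor that raises cyclic AMP. The per gene encodes PERIOD, which enters the nucleus with TIMELESS and represses its own activators CLOCK and CYCLE, so that its transcript cycles over the day. AstC encodes allatostatin C, a peptide related to vertebrate somatostatin that is made in several groups of brain neurons, dorsal clock neurons among them. These transcripts sit in few cells of the head, with per also in photoreceptors and glia. In RNA of whole heads fewer cells of a type and less RNA in each cell cannot be told apart.

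What the authors deposited for each spot is the log2 ratio of its 2 dye channels. The ratios hold no level of either channel, so the genes cannot be ordered by abundance. RNA of pilocarpine-fed flies carried Cy5 on replicates 1 and 2, and Cy3 on the dye-swapped replicates 3 and 4. The labels do not say which channel is the numerator. The ratios were read as Cy5 over Cy3, the GenePix default, and replicates 3 and 4 were therefore turned in sign. This direction is likely but not settled, and the means of the 4 genes and of the related genes named are also given for the reading in which the treated RNA is the numerator on every array. If the ratio were Cy3 over Cy5, all signs of the first reading would be opposite and the sizes the same. Each array was set to a median of 0 over its probes. All ratios below are pilocarpine over normal food on this centred log2 scale unless called deposited.

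Between 4428 and 6392 of the 27648 spots had a value on an array, the fewest on replicate 2, and the array medians lay between -0.48 and -0.14 before centring. With replicates 3 and 4 turned, replicate 1 stood apart, since it correlated with the others at -0.24 to -0.08 over the 748 genes on all 4 arrays, against 0.16 to 0.45 among the other three. With no turning it was replicate 2 that stood apart, at -0.41 to -0.08. These are correlations across genes, which are not independent replicates. The ratios cannot show whether a marker of the head is present at a high level. Of 8 photoreceptor markers 2 were tested (0.04 and 0.24), and of 6 pan-neuronal markers 1 was on the array and none was tested. Of 8 markers of the head fat body 5 were tested, with log2 ratios between -0.09 and 1.45, and 1 of them passed the test. The 3 of 6 muscle markers tested lay between -0.41 and -0.06, the 1 of 6 glial markers at 0.09, the 1 of 4 haemocyte markers at 0.13, the 2 of 4 gut markers at -0.26 and 0.10 and the 1 of 5 testis markers at 0.52, and none of these passed. The part of tissue make-up in the ratios below was not tested.

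None of the 4 genes passed the test for a difference between pilocarpine and normal food (limma, Benjamini-Hochberg adjusted over 1444 genes, threshold 0.05). Over all genes 2 of 1444 passed (0.139%), the lipophorin gene apolpp and the odorant-binding protein gene Obp19c, both higher. Neither was chosen by the rule for named genes. In the other reading 0 of 1444 passed, with 126 at an unadjusted p under 0.05 (8.73%). AstC and Pdf had log2 ratios below 0 on every array, close together for AstC and more spread for Pdf, per had a mean above 0 on 3 arrays, and Pdfr lay close to 0. In the other reading the means of AstC, Pdf and per were close to 0 and that of Pdfr was 0.11. The plot of each gene by array shows both readings.

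**Figure D1:**
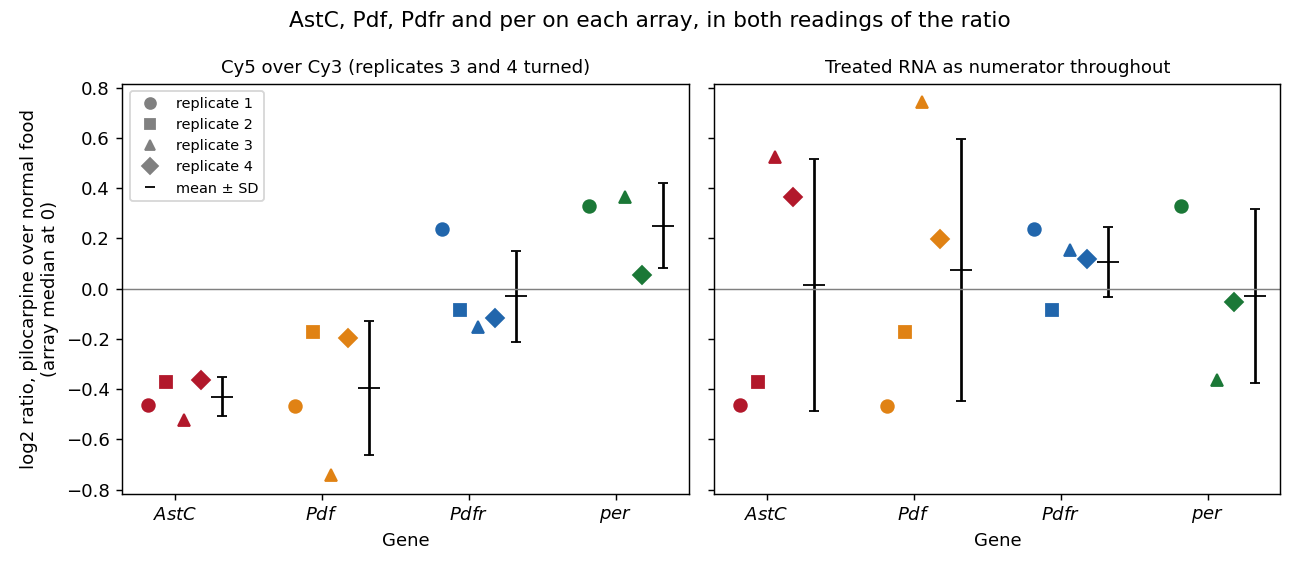
Centred log2 ratio of pilocarpine over normal food (vertical axis) for AstC, Pdf, Pdfr and per (horizontal axis), with a symbol for each replicate array and a black bar for the mean ± SD. On the left, with replicates 3 and 4 turned, the 4 points of AstC lie between -0.53 and -0.36; on the right, with the treated RNA as numerator throughout, they lie on both sides of 0.

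AstC, the allatostatin C gene, had log2 ratios of -0.46, -0.37, -0.53 and -0.36 on replicates 1 to 4. All 4 arrays were on the low side of their median, and they lay close together. The mean was -0.43 ± 0.08 (SD, n = 4), which is 0.742 times the level on normal food. The 95% interval of the limma fit ran from -0.74 to -0.12, with an unadjusted p of 0.0110 and a limma adjusted p of 0.493. By unadjusted p AstC was the 32nd of 1444 genes, of which 107 had one under 0.05 (7.41%). An exact sign-flip test over the 4 arrays gave a two-sided p of 0.125, the smallest that 4 arrays allow.

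Its spread was among the smallest measured, the 19th smallest SD of the 748 genes on all 4 arrays, whose median SD was 0.30. The limma standard error of 0.14 is larger than that spread alone would give, because limma moderates each gene's variance with that of the other genes. Being lower on all 4 arrays was shared by 51 of the 748 genes (6.82%), and AstC had the 6th lowest mean among them. The least low array of AstC was at -0.36, and 2 of the 748 genes, AstC and CG4842, were at or below that value on all 4 arrays. A further 5, apolpp, CG11089, CG16898, Desat1 and Paics, were at least as far above 0 on all 4. This count and its genes were chosen after the values were seen. Within each array 4.96%, 18.1%, 10.7% and 13.2% of the genes had ratios at or below that of AstC. Read the other way, its values were -0.46, -0.37, 0.53 and 0.36, so the arrays split by dye, and the mean was 0.01 ± 0.50 (SD, n = 4; limma adjusted p = 0.981; interval from -0.43 to 0.46). A small spread in the first reading is thus the same fact as a clean split by dye in the second.

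Pdf, the gene of the clock neuropeptide PDF, had log2 ratios of -0.47, -0.17, -0.74 and -0.20 on replicates 1 to 4. By the mean of the 2 spots all were on the low side, with replicates 1 and 3 lower than replicates 2 and 4. On replicate 2 this rests on 1 spot, as the deposited values were -0.391 and -0.916 and the array median was -0.48. The mean was -0.40 ± 0.27 (SD, n = 4), or 0.760 times the level on normal food, with a 95% interval from -0.74 to -0.05, an unadjusted p of 0.0268 and a limma adjusted p of 0.624. The exact two-sided sign-flip p was again 0.125. Pdf had the 8th lowest mean of the 51 genes lower on all 4 arrays, and its SD was near the middle, as 44.1% of the genes on 4 arrays had an SD no larger. Without replicate 3, the array with the lowest value, the mean was -0.28. Read the other way, its values split by dye as those of AstC did, and the mean was 0.08 ± 0.52 (SD, n = 4; limma adjusted p = 0.943; interval from -0.38 to 0.53).

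Pdfr, the gene of the receptor that responds to PDF, had log2 ratios of 0.24, -0.09, -0.15 and -0.12 on replicates 1 to 4. Replicate 1 was on the high side and the other three on the low side. On replicate 2 the 2 spots of Pdfr also lay on either side of the array median. The mean was -0.03 ± 0.18 (SD, n = 4; limma adjusted p = 0.986), with a 95% interval from -0.35 to 0.30. That interval covers changes in either direction. Without replicate 1 the mean was -0.12. With the treated RNA as numerator throughout, replicate 2 alone was below 0, and the mean was 0.11 ± 0.14 (SD, n = 4; limma adjusted p = 0.857; interval from -0.18 to 0.39).

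The clock gene per had no value on replicate 2 and had log2 ratios of 0.33, 0.36 and 0.06 on replicates 1, 3 and 4. All 3 were on the high side, with replicate 4 close to its array's median. The mean was 0.25 ± 0.17 (SD, n = 3), 1.19 times the level on normal food, with a 95% interval from -0.14 to 0.64 and a limma adjusted p of 0.889. The exact two-sided sign-flip p was 0.25, the smallest that 3 arrays allow, and 71 of the 696 genes on 3 arrays were higher on every one (10.2%). The array carries a second pair of spots for per, which had no value on any array. Without turning replicates 3 and 4 the mean was -0.03 ± 0.35 (SD, n = 3; limma adjusted p = 0.977; interval from -0.45 to 0.39). Because per lacks replicate 2, centring matters for it. Without centring, and with replicates 3 and 4 still turned, its mean was 0.44 in place of 0.25 (limma adjusted p = 0.9995).

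The values come from a pair of neighbouring spots per gene, and the pairs differ in how well they repeat. The deposited ratios of AstC on replicate 3 were 0.240 and 0.232, and on replicate 1 they were -0.451 and -0.745. That gap on replicate 1 was 0.29, which 89.2% of the probes with a listed gene did not exceed. For Pdf the pair on replicate 2 was -0.391 and -0.916, a gap of 0.53 that 92.4% of the probes with a listed gene did not exceed. For Pdfr the pair on replicate 2 was -0.917 and -0.217, a gap of 0.70 that 97.3% did not exceed, where the median gap on that array was 0.168. The other pairs of the 4 genes, that of AstC on replicate 1 included, differed by at most 0.29, against array medians of 0.11 to 0.17. So the widest gaps of Pdf and Pdfr both fell on the array with the fewest measured spots. With the odd-numbered spots alone Pdf was at -0.30 and Pdfr at -0.07, and with the even-numbered ones alone at -0.49 and 0.02. AstC was at -0.42 and -0.44, and per at 0.28 and 0.22. The plot of the paired spots shows these values before centring.

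**Figure D2:**
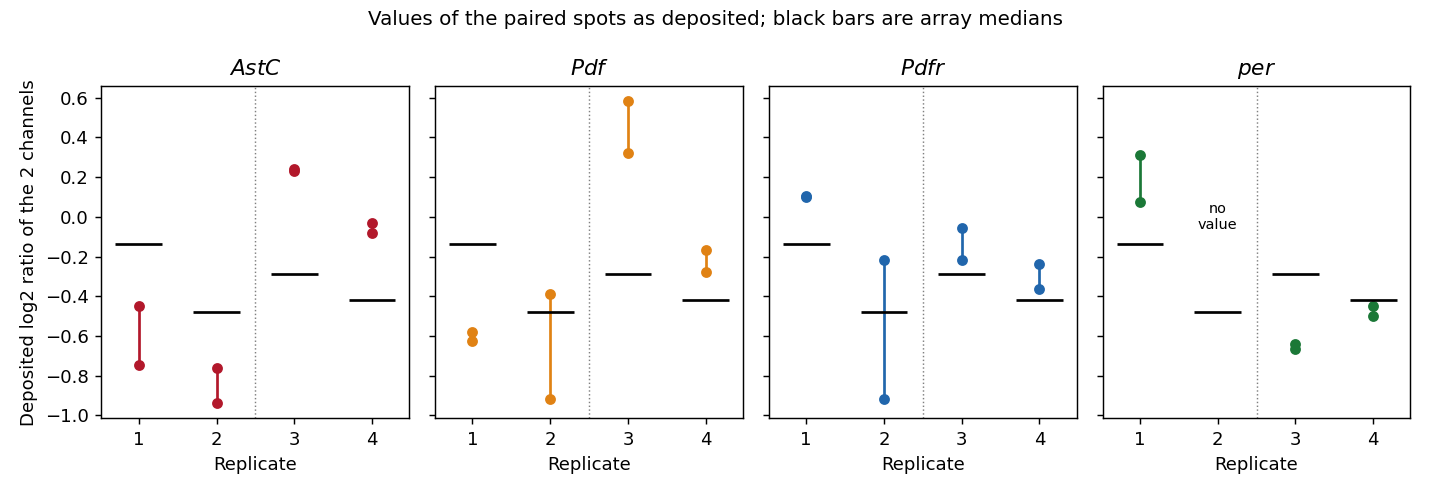
Deposited log2 ratio of the 2 channels (vertical axis) at both spots of each gene's probe on replicates 1 to 4 (horizontal axis), joined by a line, with a black bar at the array's median; the dotted line parts the dye orientations. AstC and Pdf lie below the median on replicate 1 and above it on replicates 3 and 4, per lies the other way, and the widest pair is that of Pdfr on replicate 2, with a gap of 0.70.

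The 4 genes also differed in how alike their profiles were. AstC and Pdf had a root-mean-square difference of 0.17 over the 4 arrays, smaller than that between AstC and Pdfr (0.44) or between Pdf and Pdfr (0.46). The gene farthest from both peptides was per, at 0.73 from AstC and 0.80 from Pdf over the 3 arrays it has. This measure is the same in both readings, since turning an array turns both genes. The difference between AstC and Pdf and those with per share the same arrays and pools and carry no test.

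Among all 747 other genes on 4 arrays, the closest to AstC were CG14687 (root-mean-square difference 0.12), Drat (0.13) and CG8738 (0.14), where the median gene was at 0.50. Closest to Pdf were stau (0.12), CG42361 (0.12) and yellow-d (0.13), with a median of 0.52. For Pdfr they were CG10365, CG17994 and CG17944, at 0.06 each, with a median of 0.33. For per they were Nepl16 (0.05), Cks30A (0.05) and Cyp12a5 (0.07) of 1227 genes over 3 arrays, with a median of 0.42. Thus Pdf was not among the 3 genes closest to AstC, nor AstC among those closest to Pdf.

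**Figure D3:**
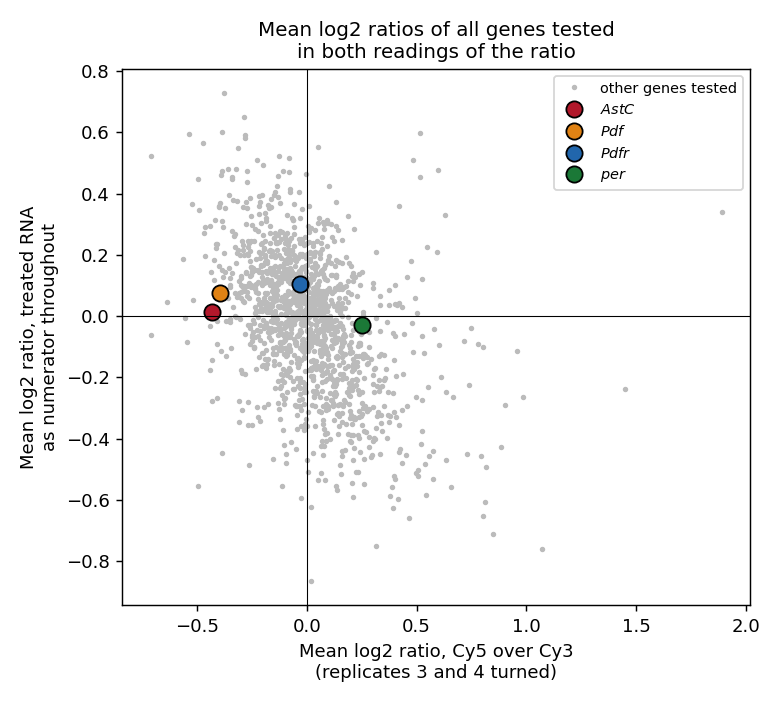
Mean centred log2 ratio of pilocarpine over normal food for the 1444 genes tested, with replicates 3 and 4 turned (horizontal axis) against the reading with the treated RNA as numerator throughout (vertical axis); grey points are genes and coloured points the 4 named ones. AstC (-0.43 and 0.01) and Pdf (-0.40 and 0.08) lie at the left of the cloud near the horizontal line, per (0.25 and -0.03) to the right and Pdfr (-0.03 and 0.11) near the centre.

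Set among all 1444 genes by the size of the mean log2 ratio, AstC ranked 84th, Pdf 115th, per 314th and Pdfr 1263rd. In the other reading the ranks were 1368th, 1011th, 1278th and 848th in the same order. By their means the 2 peptide genes thus stand near the edge in the Cy5-over-Cy3 reading, or in its reverse in sign, but not in the other. Within replicates 1 to 4, 4.89%, 38.4%, 2.84% and 27.5% of the genes had ratios at or below that of Pdf in the first reading. On replicates 2 and 4 Pdf was thus well inside the distribution. With dye orientation as a second term, the means of AstC (-0.43) and Pdf (-0.40) cannot change, since 2 arrays had each orientation. The limma adjusted p over the 748 genes on 4 arrays was 0.239 for AstC and 0.379 for Pdf. Over the same genes without the dye term it was 0.302 and 0.470. The dye coefficients were 0.01 and 0.08 (limma adjusted p = 0.982 and 0.943). The dye coefficient is by construction the mean of the other reading, so this fit does not settle the direction.

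Most other genes of peptide signalling and of the clock were not on the array or had no usable value on it. The gene Slob, given below, had too few values for a test. Of 178 genes on 6 lists, 18 had a value on at least 3 arrays and none passed the test, against 0.139% of all genes tested. Among 49 neuropeptide precursor genes 12 were on the array and 3 were tested, AstC, Pdf and Nplp3, a neuropeptide-like precursor. Nplp3 was at -0.17, -0.31 and -0.48 on replicates 1, 3 and 4, with a mean of -0.32 ± 0.15 (SD, n = 3; limma adjusted p = 0.812). Like per it lacks replicate 2, and without centring its mean was -0.13. With the odd-numbered spots alone Nplp3 was at -0.20, and with the even-numbered ones at -0.44. The median of the 3 precursor genes was -0.40, which is the mean of Pdf itself, where the median of all 1444 genes was -0.01. AstC and Pdf are the genes described above, so Nplp3 alone is added here. In the other reading the median of the 3 was 0.08, again that of Pdf, and Nplp3 was at 0.20.

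Of 41 neuropeptide receptor genes 15 were on the array and 6 were tested, none of which passed. All 6 means, that of Pdfr among them, lay between -0.18 and -0.03, with a median of -0.06. Of all 1444 genes 743 had a mean below 0, and the median was -0.01. In the other reading the 6 receptor genes lay between -0.235 and 0.36, with a median of 0.11. SPR, the receptor of sex peptide and of myoinhibitory peptides, was at -0.18 ± 0.25 (SD, n = 4), and at 0.04 in the other reading. Dh31-R, the receptor of diuretic hormone 31, which like the PDF receptor belongs to the secretin-related family, was at -0.16 ± 0.39 (SD, n = 3), and at 0.36 in the other reading. The receptor tyrosine kinase gene tor, whose product binds prothoracicotropic hormone, was at -0.09, and at 0.11 in the other reading. SIFaR, the receptor of the SIFamide peptide, was at -0.03 ± 0.56 (SD, n = 3), and at -0.235 in the other reading. The receptor genes of allatostatin C had no tested member: the probe of AstC-R1 had no usable value on any array.

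Of 21 genes that process, release or break down peptides 3 were tested and none passed. Pal2, an enzyme of the C-terminal amidation that peptides such as PDF undergo, was at -0.07 ± 0.18 (SD, n = 4). Rab2, a GTPase of dense-core vesicle maturation, was at 0.14 ± 0.39 (SD, n = 4). Ance, a peptidase related to angiotensin-converting enzyme, was at 0.18, 0.45 and 0.48 on replicates 1, 3 and 4, with a mean of 0.37 ± 0.16 (SD, n = 3; limma adjusted p = 0.706). Without turning, these 3 genes were at -0.15, -0.29 and -0.25.

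Of 24 genes on the core clock list 13 were on the array, and per and gw were tested. That list holds regulators as well as genes of the clock loops, and per was the only loop gene tested. The gene gw encodes GW182, a protein of microRNA silencing, and was at 0.06 ± 0.36 (SD, n = 4; limma adjusted p = 0.979) and at -0.31 in the other reading. The probes of tim, Clk, cry and Pdp1, partners of per in the clock loops, had no usable value on any array. Of 28 genes of clock output, light input and sleep 2 were tested. The channel-complex gene unc80 was at -0.20 ± 0.49 and the potassium channel gene Sh at -0.12 ± 0.11 (SD, n = 4 for each), and in the other reading they were at 0.12 and 0.03. A further gene, Slob, which encodes a protein that binds the Slowpoke potassium channel, had values on replicates 1 and 2 only, -0.03 and 0.50.

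Below the PDF receptor, 2 of 15 signalling genes were tested. Galphas, the stimulatory G protein subunit, was at 0.07 ± 0.38, and Pka-R1, a regulatory subunit of protein kinase A, at -0.03 ± 0.69 (SD, n = 4 for each). The arrays of Pka-R1 split by dye, at -0.62, -0.62, 0.53 and 0.60 on replicates 1 to 4. Its mean was therefore -0.59 in the other reading, with an unadjusted p of 0.000955 and a limma adjusted p of 0.560, and Galphas was at -0.31 (limma adjusted p = 0.560). Galphas and Pka-R1 were thus near 0 in the reading in which AstC and Pdf were not, and the reverse.

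**Figure D4:**
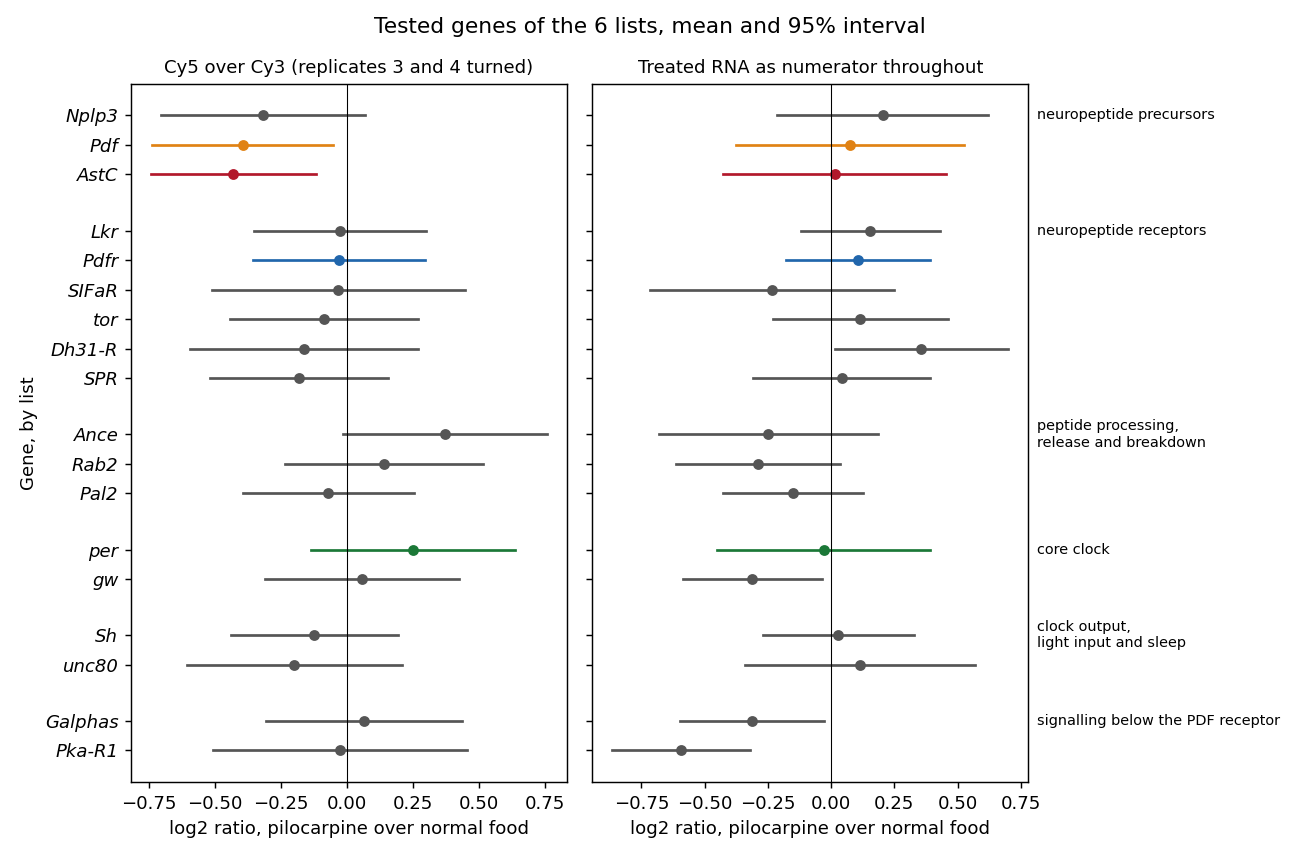
Mean log2 ratio of pilocarpine over normal food with its 95% interval from limma (horizontal axis) for the 18 tested genes of the 6 lists (vertical axis), with replicates 3 and 4 turned on the left and the treated RNA as numerator throughout on the right. On the left the intervals of AstC and Pdf lie below 0; on the right those of gw, Galphas and Pka-R1 lie below 0 and that of Dh31-R above it; none passed after adjustment over all genes.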

How the data were processed

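Head RNA was compared on 4 two-colour cDNA arrays. Per the labels' protocols and design text, the authors quantified spots in GenePix Pro 6.0, normalized ratios in Acuity 4.0 and filtered spots on saturation, flags, uniformity and signal over background. The deposited values are log2 ratios with an empty cell for each spot left out; the log base was read from the recurring ceiling of 16.61, the log2 of a rounded ratio, and its 11 cells were dropped. The genome build and the scanner intensities were not used here. Each odd-numbered spot and the next one list the same gene and were averaged (3236 probes, 1510 with 1 listed gene, 13 with several, 1713 with none), and probes of a gene were averaged. Gene IDs were updated through the NCBI gene table (29 probes without a match). Each array was centred on its median. The test was the mean ratio against 0, for genes with 3 or 4 values, in limma 3.58.1 (lmFit and eBayes under R 4.3.3, two-sided, 9.27 prior degrees of freedom). It was also run on simulated data with independent noise on each array, whereas the real arrays correlate. How often a change of the size seen for AstC or Pdf would pass is not reported here. The number of arrays limits the precision. Members and lists were chosen with earlier results of these data known. Named were the 4 genes; of each list the tested genes, or the 4 with the largest mean ratio; and for each of the 4 genes the 3 with the smallest root-mean-square difference. Alternatives covered direction, centring, scaling, filters, dye, probes, spots and left-out arrays. SAM 3.0, which the authors used, was not run.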

Additional observations from a re-analysis of the deposited data

How the results depend on the processing

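None of the 4 genes passed under any alternative run (74 values). In the reading without turning, signs were opposite: AstC 0.014, Pdf 0.075, Pdfr 0.11 and per -0.030, and also without replicate 2 (0.14, 0.16, 0.17 and -0.030). Pdfr also changed sign with arrays scaled to the same spread (0.00072), without replicate 3 (0.012) and with the even spots alone (0.021). With replicates left out, AstC ranged from -0.45 to -0.40, Pdf from -0.47 to -0.28, Pdfr from -0.12 to 0.012 and per from 0.19 to 0.35. The odd and even spots, and the pairing of the other reading with a left-out replicate, were chosen after seeing the data. Of all genes 2 passed, against 0 without turning, 4 with dye orientation as covariate, 1 for genes on 4 arrays, 1 with both spots required, 1 with 1 probe per gene, 0 of single probes, 1 and 0 with odd and even spots, and 0 to 18 with a replicate left out (0 without replicate 2 or 4, 5 without replicate 1, 18 without replicate 3). Dye orientation passed for 0 of 748 genes, and for 125 with arrays not centred. The pairing of treated and untreated pools is already part of each array's ratio, so no separate paired analysis was run.

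Of the 13 other list genes named above, which leave out the tested receptor gene Lkr, 22 of 226 values had the opposite sign. Without turning these were Nplp3 0.20, SPR 0.042, Dh31-R 0.36, tor 0.11, Rab2 -0.29, Ance -0.25, gw -0.31, unc80 0.12, Sh 0.029 and Galphas -0.31. With arrays not centred Dh31-R was at 0.029, and with scaled arrays SIFaR at 0.016. With a replicate left out SIFaR ranged from -0.20 to 0.29 (opposite without replicate 2), Rab2 from -0.012 to 0.30 (opposite without 4), gw from -0.063 to 0.17 and Galphas from -0.077 to 0.19 (both opposite without 3 or 4), and Pka-R1 from -0.24 to 0.17 (opposite without 1 or 2). Others kept their sign but moved by over 1.5 times: unc80 from -0.41 (without replicate 1) to -0.067 (without 2), Dh31-R from -0.39 (without 1) to -0.039 (without 4), tor from -0.24 (without 1) to -0.0053 (without 4), SPR from -0.27 (without 4) to -0.071 (without 3), Pal2 from -0.13 (without 4) to -0.0085 (without 1) and Sh from -0.16 (without 2) to -0.079 (without 3). With even spots SIFaR was at 0.039, and with odd spots Pka-R1 at 0.011.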
